A study of Mus musculus with 15 samples.

Results

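The 35 genes described here encode the mitochondrial pyruvate carrier, the pyruvate dehydrogenase complex with the kinases and phosphatases that switch it, pyruvate carboxylase, the enzymes of the tricarboxylic acid cycle, and the aspartate aminotransferases. They were taken by gene name from the 54532 genes of a poly-A RNA sequencing table of mouse left ventricle, and each name matched a single row. The hearts came from female C57BL/6JRj mice aged 12 to 18 weeks and were collected 8 days after surgery. In the GSK group (n = 5) GSK-343, at 20 mg/kg, was injected into the peritoneum once a day from 6 h after surgery until day 7, in Captisol at 20%. GSK-343 inhibits EZH2, the histone methyltransferase of Polycomb repressive complex 2. In the MI group (n = 5) the left descending coronary artery was tied off for good to produce an infarction, and mice received the 20% Captisol vehicle. The Sham group (n = 5) had sham surgery and received the vehicle. GSK hearts are taken as infarcted because the treatment protocol describes the drug after ligation, while their sample names give the compound only. Sham replicates 1 and 2 each mix material from 2 animals, and GSK replicates 1 and 2 have names with a G in place of the S of the other libraries.

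Pyruvate made by glycolysis enters the mitochondrion through a carrier built of MPC1 and MPC2. The pyruvate dehydrogenase complex turns it into acetyl-CoA, and is switched off when a kinase of the PDK family phosphorylates it and on again when a PDP phosphatase removes the phosphate. The cycle oxidises acetyl-CoA and hands electrons to the respiratory chain; the heart, packed with mitochondria, feeds it mainly with fatty acids and keeps pyruvate oxidation low when fat is plentiful, with PDK4 as the kinase induced in that state. Many of these genes respond to the nuclear factors ERR and NRF1, which act with the coactivator PGC-1 in heart muscle.

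RefSeq promoter windows on GRCm38.p6, from 250 bases before to 50 bases after an annotated start, were matched for 32 of the 35 genes. Windows are shown for the 4 genes with the lowest p between MI and Sham hearts, Suclg2 (chr6:95718797-95719096), Sucla2 (chr14:73552536-73552835), Dld (chr12:31351422-31351721) and Sdha (chr13:74350191-74350490), and for Sdhd (chr9:50603800-50604099), a subunit gene of the same enzyme as Sdha that was not called. All are written 5′ to 3′ on the strand of the gene, which is the plus strand for Sucla2 and the minus strand for the others. Capitals mark matches to an NRF1 motif, GCGCA and GCGC with any base between them, or to an ERR motif, TCAAGGTCA or its core AAGGTCA, each searched on both strands; the core lies inside the longer ERR motif.
Suclg2: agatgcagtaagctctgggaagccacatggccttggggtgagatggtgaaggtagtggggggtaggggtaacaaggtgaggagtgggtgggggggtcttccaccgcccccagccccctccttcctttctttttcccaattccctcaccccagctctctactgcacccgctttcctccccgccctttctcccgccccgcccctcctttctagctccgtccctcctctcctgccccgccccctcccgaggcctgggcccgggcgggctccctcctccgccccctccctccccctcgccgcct
Sucla2: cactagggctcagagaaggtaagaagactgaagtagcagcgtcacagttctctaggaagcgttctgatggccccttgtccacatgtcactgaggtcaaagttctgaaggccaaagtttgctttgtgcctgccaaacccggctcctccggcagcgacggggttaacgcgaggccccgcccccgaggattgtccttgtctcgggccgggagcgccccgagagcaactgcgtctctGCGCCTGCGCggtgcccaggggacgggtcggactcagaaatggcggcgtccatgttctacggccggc
Dld: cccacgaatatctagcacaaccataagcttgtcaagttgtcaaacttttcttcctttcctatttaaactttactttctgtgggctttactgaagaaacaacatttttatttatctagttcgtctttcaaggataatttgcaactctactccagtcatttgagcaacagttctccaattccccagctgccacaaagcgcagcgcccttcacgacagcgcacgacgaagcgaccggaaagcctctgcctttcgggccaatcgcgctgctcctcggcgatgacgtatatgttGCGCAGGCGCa
Sdha: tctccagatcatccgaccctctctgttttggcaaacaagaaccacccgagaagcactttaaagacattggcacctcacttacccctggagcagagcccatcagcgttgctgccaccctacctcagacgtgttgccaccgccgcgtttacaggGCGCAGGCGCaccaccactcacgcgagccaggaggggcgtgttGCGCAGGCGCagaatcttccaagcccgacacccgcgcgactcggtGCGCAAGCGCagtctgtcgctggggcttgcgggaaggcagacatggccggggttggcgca
Sdhd: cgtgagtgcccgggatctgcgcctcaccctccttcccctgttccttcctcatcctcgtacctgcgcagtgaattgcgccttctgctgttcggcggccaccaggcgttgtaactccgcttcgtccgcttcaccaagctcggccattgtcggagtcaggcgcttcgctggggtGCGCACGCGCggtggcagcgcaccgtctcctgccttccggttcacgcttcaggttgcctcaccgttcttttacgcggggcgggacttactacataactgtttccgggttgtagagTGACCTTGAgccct
The NRF1 motif was found in windows of 4 of the 32 genes (12.5%), namely Dld, Sdha, Sdhd and Sucla2, against 5.19% of the 27025 genes with a window. Sdha held 3 matches, which begin 98, 55 and 10 bases before the start. The ERR core was found in 3 of the 32 (Got1, Ogdh and Sdhd), or 9.38%, against 5.38% of all genes, and the longer form in Sdhd alone, against 0.466% of all genes. The Suclg2 window held no match to these letters. A match describes the sequence and does not show that a factor binds there.

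Libraries held 21.5 to 26.8 M fragments assigned to genes, and a single fragment on a gene of 1 kb is worth 0.0357 to 0.0478 FPKM (fragments per kilobase of gene length, scaled between libraries). The lowest member, Pdk3, rested on 78 to 250 fragments per library. Mitochondrially encoded transcripts made up 31.8% to 48.7% of summed FPKM in GSK, 23.2% to 40.6% in MI and 41.2% to 42.2% in Sham libraries, and MI replicate 4 and GSK replicates 3 and 4 had the highest shares of their groups. The summed level of 10 cardiomyocyte markers was 15779 to 23124 FPKM in GSK, 12259 to 25109 in MI and 19595 to 25120.0 in Sham hearts. Of these 10, MI hearts had 1 called higher and 5 called lower against Sham. The 8 fibroblast markers summed to 449 to 1695 FPKM in GSK, 734 to 1783 in MI and 256 to 361 in Sham hearts, with 6 called higher in MI than in Sham, and the 8 macrophage markers to 409 to 926 FPKM in GSK, 586 to 997 in MI and 279 to 345 in Sham hearts, with all 8 called higher. Markers of dividing cells were called higher in 6 of 6, endothelial markers in 2 of 6, neutrophil markers in 1 of 3 and erythroid markers in 1 of 5. Mural markers were 2 higher and 2 lower of 6, and adipocyte markers 2 lower of 5. The 6 lymphocyte markers were too low to test. Of all genes tested 21.9% were called higher and 21.9% lower in MI against Sham. Small counts near that share, such as the erythroid one (20.0%), are not read as a change of a cell type. No marker was at 0 in all libraries. In whole tissue, fewer heart muscle cells and less of a transcript in each cell cannot be told apart.

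All 35 genes passed the filter of at least 1 FPKM in at least 5 libraries. Averaged over the 15 libraries and compared per length, the highest level was that of Mdh1 (cytosolic malate dehydrogenase) at 709.9 FPKM, followed by Idh2 (mitochondrial NADP-dependent isocitrate dehydrogenase) at 509 FPKM, in that order in each group. The third highest group mean was that of Ogdh (oxoglutarate dehydrogenase) in GSK at 336 FPKM, of Sdhd (a membrane anchor of succinate dehydrogenase) in MI at 308 FPKM and of Sdha (its flavoprotein subunit) in Sham at 464 FPKM. The lowest averages over all libraries were those of the kinase gene Pdk3 at 2.39, the phosphatase gene Pdp2 at 3.51 and pyruvate carboxylase, Pcx, at 8.69 FPKM, with Pdp2 the lowest in MI at 2.06 FPKM, where Pdk3 averaged 2.95. By these averages Pdk4 stood highest among the kinase genes at 152 FPKM, then Pdk2 at 99.9 and Pdk1 at 25.2 FPKM. By group medians Pdk4 lay below Pdk2 in GSK (77.9 against 97.9 FPKM) and in MI (56.99 against 74.9 FPKM). In Sham its median lay above that of Pdk2 (184 against 128 FPKM). Of the 35 genes 14 overlap another annotated gene and 4 have a named pseudogene; whether strand was used in counting is not given in the sources used here, and reads of such genes could be split or shared.

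Between MI and Sham hearts the set moved down almost as a whole. In MI 26 of the 35 genes were called lower and 1 higher (limma, adjusted p under 0.05, on the log2(FPKM + 1) scale). Of all 12585 genes tested, 21.9% were called lower and 21.9% higher. The median log2 difference of the 35 genes was -0.56, against -0.017 over all genes tested, and 34 of the 35 differences were below 0 and 1 above, against 51.9% and 48.1% of all genes. In 17 of the 35 genes every MI library lay below every Sham library, a pattern found in 14.2% of all genes tested. With MI replicate 4 and GSK replicates 3 and 4 left out, 28 were called lower and 0 higher, against 23.7% and 22.8% of all genes. Without the mixed Sham libraries the counts were 21 and 0, against 16.6% and 17.6%. When the libraries were rescaled to equal totals over nuclear genes alone, 3314 of all genes were called higher and 1897 lower, against 2757 and 2758 as deposited, and of the 35 genes 1 was called higher and 23 lower. No member changed direction in any of 20 alternatives. Of the 21 genes that overlap no other annotated gene, 15 were called lower and 1 higher.

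**Figure D1:**
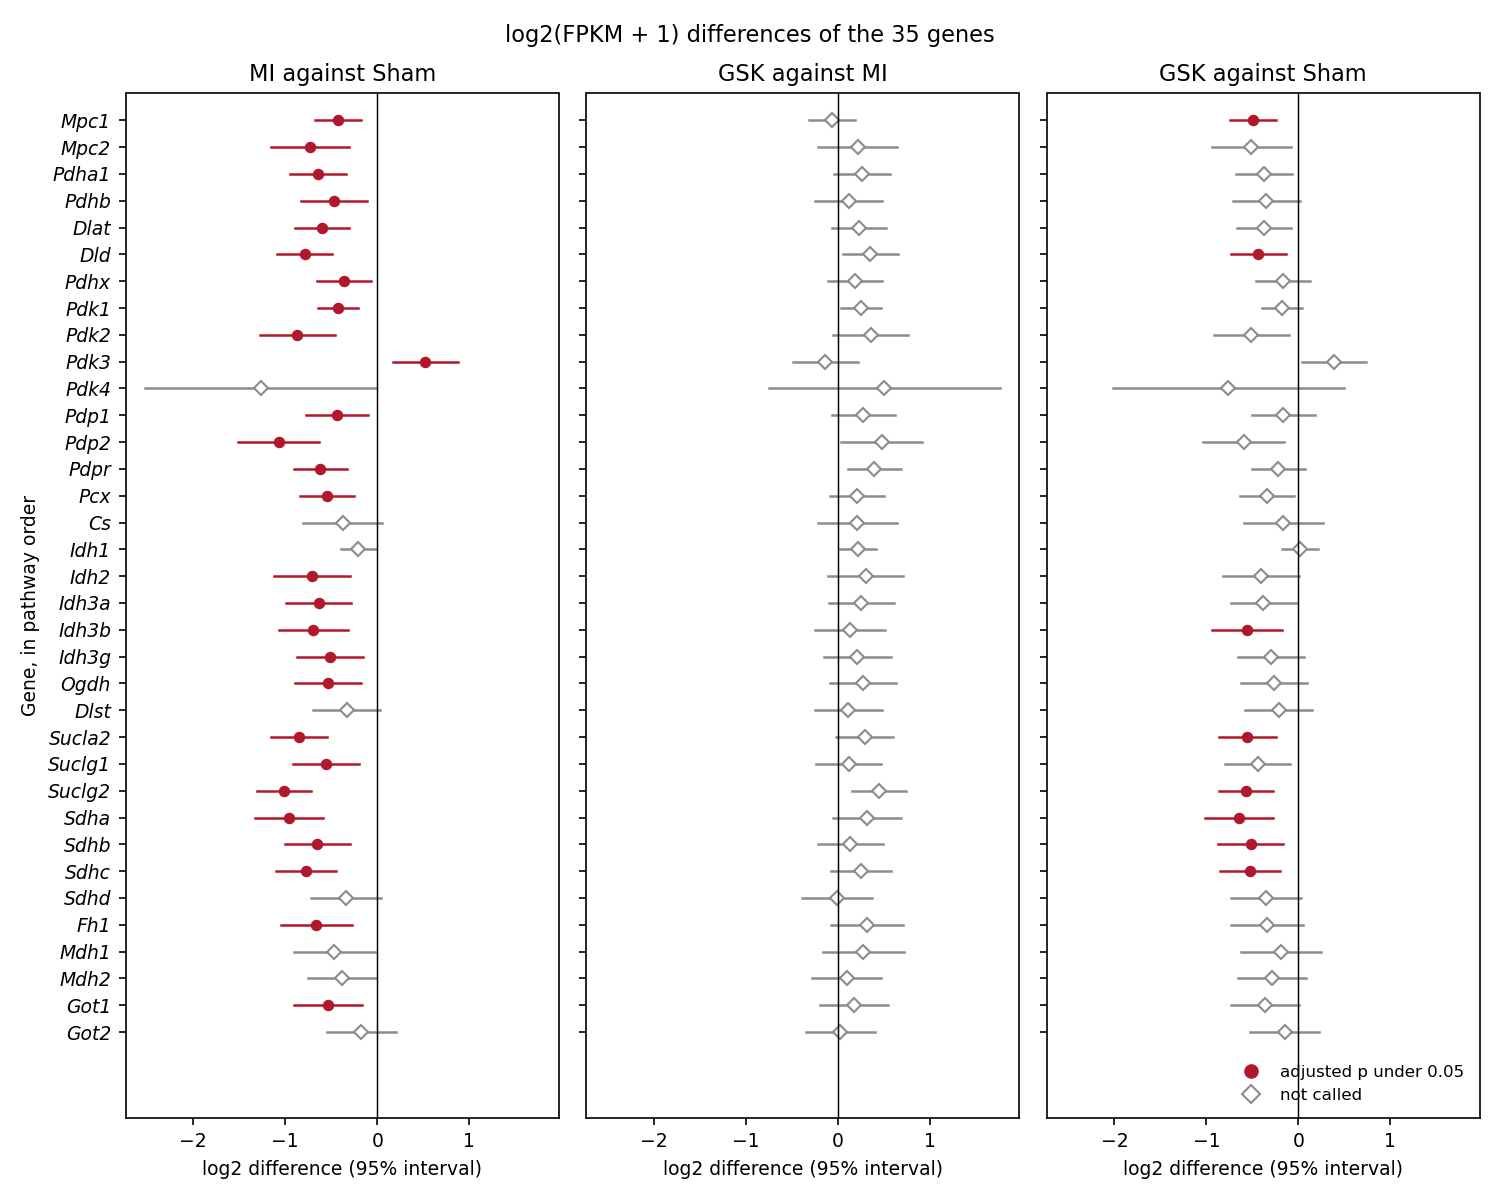
Log2(FPKM + 1) differences with 95% intervals of limma for the 35 genes, in pathway order down the page, for MI against Sham, GSK against MI and GSK against Sham. Filled circles mark an adjusted p under 0.05 and open diamonds none; in MI against Sham all genes but Pdk3 lie left of 0, and in GSK against MI no gene is called.

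The pyruvate carrier fell. Mpc1 had 24.7, 22.1, 20.9, 28.7 and 29.99 FPKM in MI hearts, against 33.2, 27.4, 33.3, 38.02 and 39.4 FPKM in Sham hearts (log2 difference -0.43 ± 0.12 SE, adjusted p = 0.00916). The highest MI libraries reached into the Sham range, which Sham replicate 2 set at its low end. Mpc2 had 29.6, 14.2, 28.01, 24.99 and 41.3 FPKM in MI hearts, against 40.3, 45.1, 41.7, 48.9 and 44.9 FPKM in Sham hearts (log2 difference -0.73 ± 0.20 SE, adjusted p = 0.00881). MI replicate 2 was lowest by far for Mpc2, and MI replicate 5 stood within the Sham range. Both genes overlap an annotated transcript and have a named pseudogene, so their values are uncertain.

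All 5 genes of the pyruvate dehydrogenase complex were called lower in MI. Dld encodes dihydrolipoamide dehydrogenase, which this complex shares with oxoglutarate dehydrogenase and the branched-chain complex. It had 87.7, 61.6, 75.2, 104 and 99.4 FPKM in MI hearts, against 144, 146, 139, 147 and 154 FPKM in Sham hearts (log2 difference -0.79 ± 0.14 SE, adjusted p = 0.000505). No MI library reached the lowest Sham library. Pdha1, the catalytic subunit that the kinases phosphorylate, averaged 177 ± 38.1 FPKM in MI and 271 ± 17.9 in Sham (SD, n = 5 each; log2 difference -0.64 ± 0.14 SE, adjusted p = 0.00235), and Dlat, the acetyltransferase of the core, 68.4 ± 15.9 FPKM in MI and 102 ± 4.51 FPKM in Sham (log2 difference -0.60 ± 0.14 SE, adjusted p = 0.0028). These 3 genes did not overlap between the groups. Pdhb, partner of Pdha1, and Pdhx, which tethers DLD to the core, differed less (-0.47 ± 0.17 and -0.36 ± 0.14 SE, adjusted p = 0.0365 and 0.0469). The Pdhb call was lost under 12 of 20 alternatives, including those without MI replicates 1, 2 or 3 or Sham replicates 1, 2, 4 or 5 (adjusted p up to 0.126). The Pdhx call was lost under 13 of 20 alternatives, including those without MI replicates 1, 2 or 3 or Sham replicates 1, 2, 3, 4 or 5 (adjusted p up to 0.183).

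The kinases did not move together. Pdk2, a kinase of broad tissue range, had 86.1, 42.6, 69.8, 74.9 and 97.1 FPKM in MI hearts, against 122, 139, 115, 128 and 157 FPKM in Sham hearts (log2 difference -0.87 ± 0.19 SE, adjusted p = 0.00215). All MI libraries lay below all Sham libraries. Pdk1, which is induced by hypoxia, had 21.8, 19.97, 20.5, 25.5 and 18.5 FPKM in MI hearts, against 30.9, 31.6, 25.8, 29.01 and 27.1 FPKM in Sham hearts (log2 difference -0.43 ± 0.10 SE, adjusted p = 0.00351), again with no overlap. Pdk3 (ENSMUSG00000035232, chromosome X, 93764607 to 93832201 on mm10) was the single member called higher, with 1.89, 3.49, 2.42, 4.57 and 2.39 FPKM in MI hearts, against 1.37, 1.51, 1.89, 2.12 and 1.54 FPKM in Sham hearts (log2 difference 0.52 ± 0.17 SE, adjusted p = 0.0186). Its groups overlapped, because MI replicate 1 fell inside the Sham range. The Pdk3 call was lost with MI replicate 4 and GSK replicates 3 and 4 left out (adjusted p = 0.0509) and without the mixed Sham libraries (0.105).

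Pdk4 (ENSMUSG00000019577, chromosome 6, 5483351 to 5496309 on mm10), the kinase of the fasted and fat-burning heart, had 282, 46.5, 91.5, 37.5 and 56.99 FPKM in MI hearts, against 294, 402, 109, 91.3 and 184 FPKM in Sham hearts. Its coefficient of variation was 99.3% in MI and 60.7% in Sham, the largest of the 35 genes in both groups, and it also varied by 75.6% among GSK hearts. The difference was the largest of the set and was not called (log2 difference -1.27 ± 0.59 SE, adjusted p = 0.0936, 95% interval -2.52 to -0.012). MI replicate 1 lay above 3 of the 5 Sham libraries, and without it Pdk4 was called lower (log2 difference -1.73, adjusted p = 0.0165).

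The phosphatase genes fell as a group of 3. Pdp2, a catalytic phosphatase subunit expressed at a low level, had 3.22, 1.03, 1.46, 1.65 and 2.94 FPKM in MI hearts, against 4.20, 6.09, 4.23, 4.53 and 7.50 FPKM in Sham hearts (log2 difference -1.07 ± 0.21 SE, adjusted p = 0.000908). On the log2(FPKM + 1) scale such a low gene is understated. Pdpr, the regulatory subunit, had 14.7, 11.7, 10.6, 17.4 and 17.8 FPKM in MI hearts, against 20.9, 21.4, 22.1, 21.7 and 25.2 FPKM in Sham hearts (log2 difference -0.62 ± 0.13 SE, adjusted p = 0.00203). Neither gene overlapped between the groups. Pdp1, the main catalytic subunit of muscle, had 7.84, 5.40, 7.04, 9.50 and 8.78 FPKM in MI hearts, against 7.53, 9.88, 11.03, 11.5 and 14.2 FPKM in Sham hearts (log2 difference -0.44 ± 0.16 SE, adjusted p = 0.0385), and its call was lost under 11 of 20 alternatives, including those without MI replicates 1, 2 or 3 or Sham replicates 2, 3, 4 or 5 (adjusted p up to 0.106). Pcx, which turns pyruvate into oxaloacetate, averaged 7.10 ± 1.73 FPKM in MI and 10.7 ± 1.69 FPKM in Sham (log2 difference -0.55 ± 0.14 SE, adjusted p = 0.00512).

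**Figure D2:**
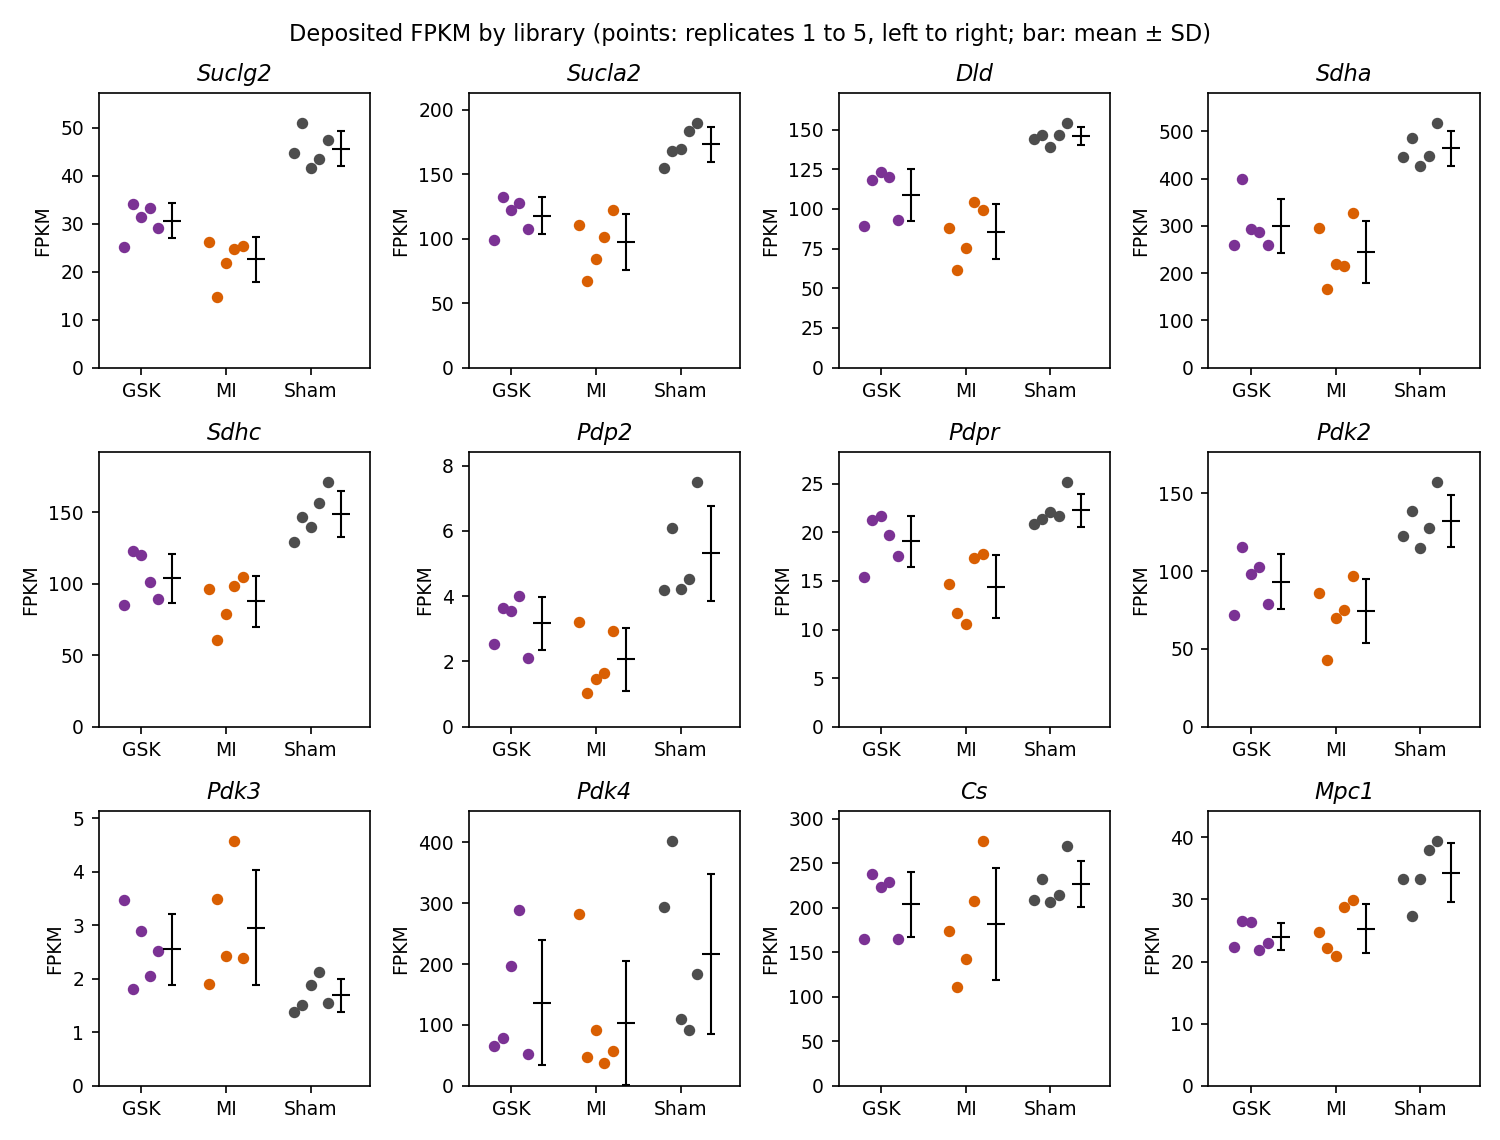
Deposited FPKM of 12 of the 35 genes in each library, with GSK, MI and Sham from left to right, a point per replicate, and the mean ± SD as a bar. For Suclg2, Sucla2, Dld, Sdha, Sdhc and Pdp2 all GSK and all MI points lie below all Sham points, whereas Pdk4 and Cs overlap widely.

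At the entry of the cycle, Cs, citrate synthase, was not called. It had 173, 111, 142, 207 and 275 FPKM in MI hearts, against 208, 233, 207, 215 and 269 FPKM in Sham hearts (log2 difference -0.37 ± 0.20 SE, adjusted p = 0.145). MI replicate 5 was above all Sham libraries, and without it Cs was called lower (log2 difference -0.54, adjusted p = 0.0229). The 3 subunit genes of the NAD-dependent isocitrate dehydrogenase were called lower, with log2 differences of -0.64 ± 0.17 for Idh3a, -0.69 ± 0.18 for Idh3b and -0.51 ± 0.17 for Idh3g (± SE, adjusted p = 0.00635, 0.00557 and 0.024). The Idh3g call was lost under 5 of 20 alternatives, including those without MI replicates 2 or 3 or Sham replicate 5 (adjusted p up to 0.0609). Of the NADP-dependent forms, mitochondrial Idh2 averaged 398 ± 93.5 FPKM in MI and 639 ± 74.5 in Sham (log2 difference -0.71 ± 0.19 SE, adjusted p = 0.00811; adjusted p = 0.0527 under quantile normalization), while cytosolic Idh1 had 15.9, 14.6, 15.2, 18.5 and 15.2 FPKM in MI hearts, against 14.99, 21.1, 19.2, 18.6 and 18.5 FPKM in Sham hearts and was not called (log2 difference -0.20 ± 0.091 SE, adjusted p = 0.0806). Without MI replicate 4 or Sham replicate 1, Idh1 was called lower (adjusted p = 0.0299 and 0.0192).

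The steps from oxoglutarate to fumarate held the largest called falls among cycle enzymes. Suclg2 (ENSMUSG00000061838, chromosome 6, 95473009 to 95718800 on mm10), the beta subunit of the GTP-forming succinyl-CoA ligase, had 26.2, 14.6, 21.8, 24.7 and 25.4 FPKM in MI hearts, against 44.7, 50.98, 41.6, 43.4 and 47.5 FPKM in Sham hearts (log2 difference -1.01 ± 0.14 SE, adjusted p = 8.13e-05). All MI libraries lay below all Sham libraries. Sucla2, the beta subunit of the ATP-forming ligase, had 111, 67.5, 84.6, 102 and 123 FPKM in MI hearts, against 155, 168, 169.8, 183 and 189.8 FPKM in Sham hearts (log2 difference -0.85 ± 0.15 SE, adjusted p = 0.00037), and Suclg1, the alpha subunit that both share, averaged 57.8 ± 16.2 FPKM in MI and 83.2 ± 6.06 FPKM in Sham (log2 difference -0.56 ± 0.17 SE, adjusted p = 0.0139). Suclg2 and Sucla2 did not overlap between the groups, while Suclg1 did. Of oxoglutarate dehydrogenase, Ogdh was called lower (log2 difference -0.54 ± 0.17 SE, adjusted p = 0.0185) and Dlst, the succinyltransferase, was not (log2 difference -0.33 ± 0.17 SE, adjusted p = 0.131). The Ogdh call was lost under 3 of 20 alternatives, including those without Sham replicate 5 (adjusted p up to 0.138), and without MI replicate 5 Dlst was called lower (adjusted p = 0.016).

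Succinate dehydrogenase belongs to both the cycle and the respiratory chain. Sdha, its flavoprotein, had 296, 165, 219.6, 214 and 327 FPKM in MI hearts, against 445, 485, 426, 448 and 518 FPKM in Sham hearts (log2 difference -0.96 ± 0.17 SE, adjusted p = 0.000536). Sdhc, a membrane anchor, had 96.4, 60.5, 79.1, 98.5 and 105 FPKM in MI hearts, against 129.6, 147, 140.1, 157 and 171 FPKM in Sham hearts (log2 difference -0.78 ± 0.15 SE, adjusted p = 0.000999). In both genes all MI libraries lay below all Sham libraries, and the same held for Sdhb, the iron-sulfur subunit (log2 difference -0.65 ± 0.17 SE, adjusted p = 0.00551). The other anchor gene, Sdhd, was not called (log2 difference -0.34 ± 0.18 SE, adjusted p = 0.137): MI replicate 5, at 447 FPKM, exceeded the highest Sham library at 420.4 FPKM, and without that library Sdhd was called lower (adjusted p = 0.0214). Fh1, fumarase, was called lower with no overlap (log2 difference -0.66 ± 0.18 SE, adjusted p = 0.0091).

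The malate dehydrogenases and the aspartate aminotransferases form the shuttle that carries cytosolic reducing equivalents into the mitochondrion. Mdh1 averaged 603 ± 171 FPKM in MI and 806 ± 67.8 in Sham (log2 difference -0.47 ± 0.21 SE, adjusted p = 0.0788), and mitochondrial Mdh2 242 ± 67.1 FPKM in MI and 307 ± 28.1 FPKM in Sham (log2 difference -0.38 ± 0.18 SE, adjusted p = 0.0878). Neither was called, but Mdh1 was without MI replicate 4 and Mdh2 without MI replicate 5 (adjusted p = 0.038 and 0.0163). Cytosolic Got1 was called lower (log2 difference -0.54 ± 0.17 SE, adjusted p = 0.0216), a call lost under 5 of 20 alternatives, including those without MI replicates 2 or 3 or Sham replicate 5 (adjusted p up to 0.157). Mitochondrial Got2 was not called under any alternative (log2 difference -0.17 ± 0.18 SE, adjusted p = 0.445).

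The spread between hearts was widest in the MI group, and a few libraries were at the ends of their group for most of the 35 genes. The median coefficient of variation of the 35 genes was 16.5% in GSK, 26.3% in MI and 8.09% in Sham. MI replicate 2 was the lowest MI library in 30 of the 35 genes, with a median of -1.06 log2 units from the Sham mean of each gene. MI replicate 5 was the highest in 25, with a median of -0.19; 5 of its genes exceeded every Sham library and 18 lay below every one. Among GSK hearts, replicate 1 was lowest in 25 genes (median -0.62) and replicate 2 highest in 24 (median -0.11).

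Within the MI group, the summed FPKM of the 35 genes and that of the cardiomyocyte markers were both lowest in replicate 2 and both highest in replicate 5. MI replicate 2 had the lowest sums of the series for both, 2915 FPKM for the 35 genes and 12259 for the 10 markers. MI replicate 5 had 5795 and 25109 FPKM. Its marker sum was above those of all Sham libraries but replicate 2, whereas its sum of the 35 genes was below every Sham library (lowest 5941). Divided by the marker sum of the same library, the sum of the 35 genes was 0.235 to 0.307 in GSK, 0.224 to 0.262 in MI and 0.270 to 0.321 in Sham hearts. The MI and Sham ranges of this quotient did not overlap, and the GSK range overlapped both. Of the 10 markers 5 were called lower and 1 higher in MI against Sham, so the quotient also depends on changes in the markers. How often other sets of genes separate in this way was not counted. The part of muscle cell content in the fall of single genes was not tested.

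**Figure D3:**
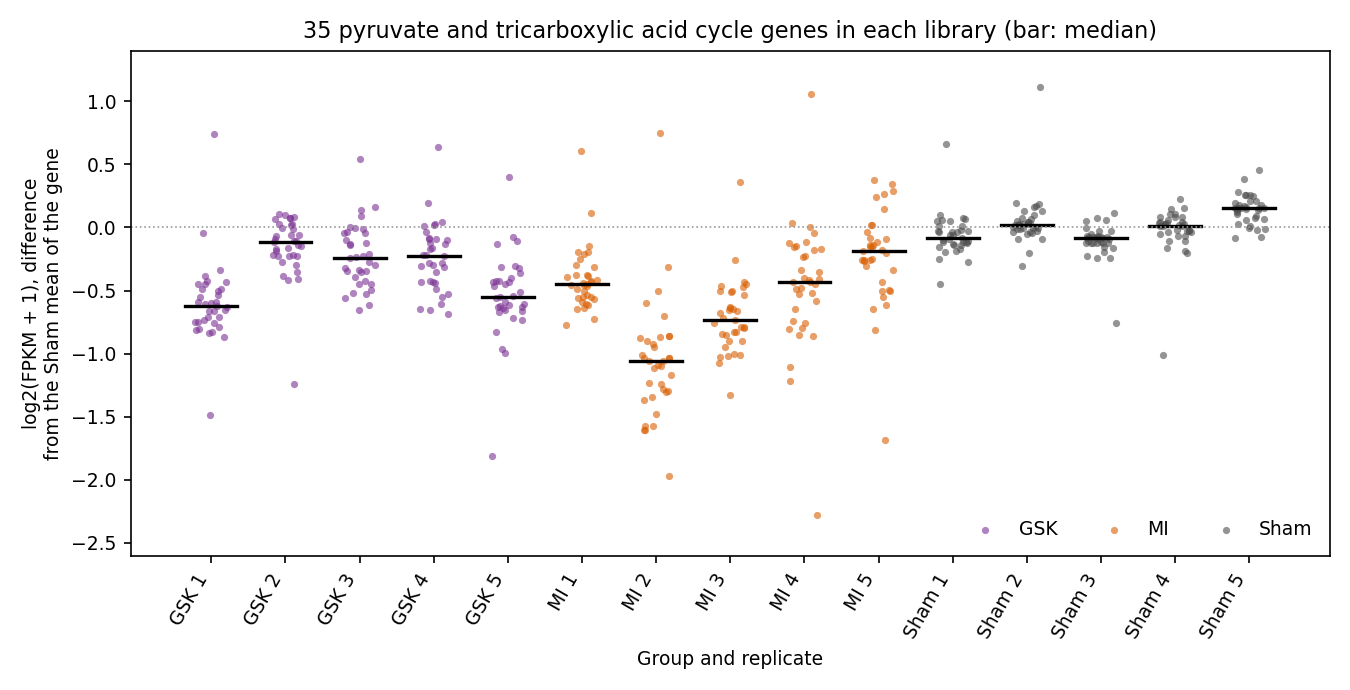
Each of the 35 genes as a point in each of the 15 libraries, as log2(FPKM + 1) minus the mean of that gene in the 5 Sham libraries, with black bars for library medians. MI replicate 2 lies lowest, with a median of -1.06, while MI replicate 5 and GSK replicate 2, at -0.19 and -0.11, come close to the Sham libraries.

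Between GSK and MI hearts no member was called. In limma's test 0 of the 35 were higher and 0 lower, and of all 12585 genes tested 0% were called higher and 0% lower. The count over all genes moved with single libraries left out: 204 were called higher and 188 lower without MI replicate 1, 154 and 134 without GSK replicate 5, 19 and 7 without MI replicate 4, 6 and 1 without GSK replicate 1, and 0 without any other GSK or MI library. The lowest adjusted p of the 35 was 0.12, and none fell under 0.05 in any of 20 alternatives, limma's voom on recovered fragments among them. At an unadjusted p under 0.05, 6 of the 35 were higher in GSK (Suclg2, Pdpr, Pdk1, Dld, Idh1 and Pdp2) and 0 lower, or 17.1% against 10.8% of all genes for higher, with 10.1% lower. Of the 35 differences 32 were above 0 and 3 below, against 50.4% and 49.6% of all genes, with a median of 0.23 against 0.00229 over all genes. Without MI replicate 2, 25 were above 0 and 10 below, with a median of 0.12. Marker lists went both ways in the same comparison. Differences were below 0 in 8 of 8 macrophage, 3 of 3 neutrophil and 5 of 5 erythroid markers (3, 3 and 2 of them at an unadjusted p under 0.05) and in 5 of 8 fibroblast markers, with medians of -0.41, -0.85, -0.77 and -0.56. They were above 0 in 8 of 10 cardiomyocyte, 5 of 6 endothelial and 5 of 5 adipocyte markers, with medians of 0.066, 0.085 and 0.18. Mural markers and those of dividing cells each had 3 above 0 and 3 below. No marker was called, and their part in the shift of the 35 genes was not tested. In every member the GSK and MI libraries overlapped; of all genes 1.15% had every GSK library above every MI library and 0.858% below.

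The member of lowest p was Suclg2, with 25.1, 34.1, 31.4, 33.2 and 29.1 FPKM in GSK hearts, against 26.2, 14.6, 21.8, 24.7 and 25.4 FPKM in MI hearts (log2 difference 0.44 ± 0.14 SE, adjusted p = 0.12). All GSK libraries but replicate 1 lay above the highest MI library. Pdpr had 15.4, 21.2, 21.6, 19.7 and 17.6 FPKM in GSK hearts, against 14.7, 11.7, 10.6, 17.4 and 17.8 FPKM in MI hearts (log2 difference 0.40 ± 0.13 SE, adjusted p = 0.137). Pdk1 had 20.9, 24.5, 27.9, 28.01 and 26.7 FPKM in GSK hearts, against 21.8, 19.97, 20.5, 25.5 and 18.5 FPKM in MI hearts (log2 difference 0.26 ± 0.10 SE, adjusted p = 0.177). For both genes 3 of the 5 GSK libraries lay above the highest MI library.

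Dld had 88.96, 118, 123, 120.0 and 93.2 FPKM in GSK hearts, against 87.7, 61.6, 75.2, 104 and 99.4 FPKM in MI hearts (log2 difference 0.35 ± 0.14 SE, adjusted p = 0.178). In all, 3 GSK libraries stood above all MI libraries, and the other two, replicates 1 and 5, within the MI range. Idh1 had 17.8, 18.8, 20.7, 18.6 and 17.4 FPKM in GSK hearts, against 15.9, 14.6, 15.2, 18.5 and 15.2 FPKM in MI hearts (log2 difference 0.22 ± 0.091 SE, adjusted p = 0.186). MI replicate 4 was the one MI library that reached into the GSK range of Idh1. Pdp2 had 2.52, 3.64, 3.54, 4.0 and 2.10 FPKM in GSK hearts, against 3.22, 1.03, 1.46, 1.65 and 2.94 FPKM in MI hearts (log2 difference 0.48 ± 0.21 SE, adjusted p = 0.208), with GSK replicates 2, 3 and 4 above the highest MI library.

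The intervals show what the design could not resolve. The 95% interval of the log2 difference was 0.15 to 0.74 for Suclg2, -0.05 to 0.69 for Sdha, -0.22 to 0.64 for Cs and -0.051 to 0.76 for Pdk2. It included 0 in 29 of the 35 genes. For Pdk4, with 65.6, 77.9, 197, 288 and 52.03 FPKM in GSK hearts, against 282, 46.5, 91.5, 37.5 and 56.99 FPKM in MI hearts, it ran from -0.75 to 1.76. GSK replicates 3 and 4 were the high Pdk4 libraries of their group, and MI replicate 1 of its own. With MI replicate 4 and GSK replicates 3 and 4 left out, the Pdk4 difference was -0.50, against 0.50 with all libraries. Pdk3 had 3.46, 1.80, 2.89, 2.05 and 2.52 FPKM in GSK hearts, against 1.89, 3.49, 2.42, 4.57 and 2.39 FPKM in MI hearts (log2 difference -0.14 ± 0.17 SE, adjusted p = 0.656). Mpc1 had 22.3, 26.5, 26.4, 21.9 and 22.98 FPKM in GSK hearts, against 24.7, 22.1, 20.9, 28.7 and 29.99 FPKM in MI hearts (log2 difference -0.062 ± 0.12 SE, adjusted p = 0.786). With Sdhd, at -0.012 ± 0.18 SE, these were the 3 members with a difference below 0, and the ranges overlapped broadly.

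GSK hearts were also set against Sham hearts. Of the 35 genes 8 were called lower and 0 higher in limma's test, against 7.58% called lower and 10.8% called higher of all genes tested. At an unadjusted p under 0.05 the counts were 16 lower and 1 higher, against 16.6% and 18.0% of all genes. The 8 called were Mpc1, Dld, Idh3b, Sucla2, Suclg2, Sdha, Sdhb and Sdhc. The median log2 difference was -0.36, against -0.016 over all genes, with 33 differences below 0 and 2 above, against 52.7% and 47.3% of all genes. In 15 genes every GSK library lay below every Sham library, as in 7.79% of all genes. Suclg2 had 25.1, 34.1, 31.4, 33.2 and 29.1 FPKM in GSK hearts, against 44.7, 50.98, 41.6, 43.4 and 47.5 FPKM in Sham hearts (log2 difference -0.57 ± 0.14 SE, adjusted p = 0.013). Sdha had 259, 398, 294, 288 and 260.0 FPKM in GSK hearts, against 445, 485, 426, 448 and 518 FPKM in Sham hearts (log2 difference -0.64 ± 0.17 SE, adjusted p = 0.0205). Sucla2 had 98.7, 132, 122, 128 and 108 FPKM in GSK hearts, against 155, 168, 169.8, 183 and 189.8 FPKM in Sham hearts (log2 difference -0.56 ± 0.15 SE, adjusted p = 0.0179). For these 3 genes every GSK library lay below every Sham library. Mpc1 had 22.3, 26.5, 26.4, 21.9 and 22.98 FPKM in GSK hearts, against 33.2, 27.4, 33.3, 38.02 and 39.4 FPKM in Sham hearts (log2 difference -0.49 ± 0.12 SE, adjusted p = 0.0126) and was the only one of the 8 called under all 21 alternatives.

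The count of 8, or 22.9% against 7.58% of all genes, was unsteady, and so was the count over all genes. The count of members was 2 without GSK replicate 1 or GSK replicate 5 (5.71%, against 3.83% and 3.27% of all genes), 5 without GSK replicate 4 (14.3% against 5.36%), and 3 to 5 without a single Sham library (5, 4, 5, 4 and 3 for replicates 1 to 5), where 3.62% to 5.53% of all genes were called lower. It was 5 with MI replicate 4 and GSK replicates 3 and 4 left out, 2 without the mixed Sham libraries, and 3 without the 2 GSK libraries named with G, against 8.54%, 3.68% and 4.77% of all genes. It was 18, or 51.4% against 13.5% of all genes, when only GSK and Sham entered the fit. That fit took the spread from these 2 groups alone and tested 12015 genes, and what raised the count was not tested. After rescaling to equal totals over nuclear genes alone, the median of all genes was 0.092 and calls over all genes were 1960 higher and 425 lower, against 1354 and 954 as deposited; of the 35 genes 6 were called lower and 0 higher, with a median of -0.23. Under quantile normalization 2 were called lower, with a median of -0.17; that share, 5.71%, was below the 7.52% of all genes. In all, 11 genes lay wholly below Sham in both infarcted groups, and the GSK mean fell between the MI and Sham means in 31 of the 35 genes, all but Idh1, Sdhd, Mpc1 and Got2. The comparisons share libraries, so such an order carries no separate test. How many of all genes show either pattern was not counted, so neither count is read as particular to the 35 genes. Taken singly, 14.2% of all genes lay wholly below Sham in MI and 7.79% in GSK.

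Ratios between paired members, taken within a library, do not depend on how libraries are scaled. Of 10 such ratios, 2 were called between MI and Sham by exact permutation of the libraries, with p adjusted over the 10. Got1 (ENSMUSG00000025190, chromosome 19, 43499752 to 43524605 on mm10) over Got2 (ENSMUSG00000031672, chromosome 8, 95864134 to 95888547 on mm10), the cytosolic against the mitochondrial aminotransferase, was 1.995, 1.92, 1.96, 1.89 and 1.89 in GSK hearts, 1.76, 1.75, 1.74, 1.71 and 1.74 in MI hearts and 2.40, 2.27, 2.29, 2.12 and 2.12 in Sham hearts. The 3 groups were fully apart, with MI lowest, GSK between and Sham highest. MI was below Sham in 5 of 5 libraries (log2 difference -0.36 ± 0.036 SE, exact two-sided permutation p = 0.00794, adjusted p = 0.0397). GSK was above MI in 5 of 5 (log2 difference 0.15 ± 0.017 SE, exact two-sided permutation p = 0.00794, adjusted p = 0.0794) and below Sham in 5 of 5 (log2 difference -0.21 ± 0.038 SE, exact two-sided permutation p = 0.00794, adjusted p = 0.0794), which did not pass the adjustment; 0.00794 is the smallest p that 5 against 5 libraries allow. With MI replicate 4 and GSK replicates 3 and 4 left out the differences were -0.36, 0.15 and -0.21. Got2 overlaps a transcript still to be verified on the other strand and has a named pseudogene, which makes its level uncertain.

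The second ratio called was that of the kinases Pdk3 and Pdk2. It was 0.0483, 0.0156, 0.0296, 0.0200 and 0.0321 in GSK, 0.0220, 0.0818, 0.0347, 0.0611 and 0.0246 in MI and 0.0112, 0.0109, 0.0164, 0.0165 and 0.00978 in Sham hearts, so that every MI value was above every Sham value (log2 difference 1.63 ± 0.40 SE, exact two-sided permutation p = 0.00794, adjusted p = 0.0397). GSK overlapped both other groups (GSK against MI log2 difference -0.54 ± 0.46 SE, exact two-sided permutation p = 0.27, adjusted p = 0.556; GSK against Sham log2 difference 1.09 ± 0.32 SE, exact two-sided permutation p = 0.0238, adjusted p = 0.0992). Both ratios were called without any single MI library and neither without any single Sham library, the highest adjusted p of both being 0.0794. The exact permutation p of Got1 over Got2 was 0.00794 whichever library was left out, the smallest that 5 against 4 allows, and its log2 difference -0.38 to -0.34, so its adjusted p moved only with the p-values of the other ratios. For Pdk3 over Pdk2 the exact permutation p was 0.00794 to 0.0159 and the log2 difference 1.37 to 1.84. Pdk4 over Pdk2 did not separate any groups, with medians of 0.915 in GSK, 1.09 in MI and 1.17 in Sham.

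The GTP-forming over the ATP-forming ligase subunit, Suclg2 over Sucla2, was 0.255, 0.258, 0.256, 0.259 and 0.270 in GSK hearts, 0.237, 0.216, 0.258, 0.243 and 0.208 in MI hearts and 0.288, 0.303, 0.245, 0.237 and 0.250 in Sham hearts. The GSK values lay above the MI values except for MI replicate 3, without passing the adjustment (log2 difference 0.17 ± 0.058 SE, exact two-sided permutation p = 0.0238, adjusted p = 0.119), and both mixed Sham libraries stood above all other libraries. Idh1 over Idh2 had a log2 difference above 0 in MI that did not pass the adjustment (log2 difference 0.49 ± 0.18 SE, exact two-sided permutation p = 0.0317, adjusted p = 0.106). Neither Mdh1 over Mdh2 (log2 difference -0.082 ± 0.12 SE, exact two-sided permutation p = 0.571, adjusted p = 0.635) nor Mpc1 over Mpc2 (log2 difference 0.31 ± 0.23 SE, exact two-sided permutation p = 0.246, adjusted p = 0.397) was called between MI and Sham.

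**Figure D4:**
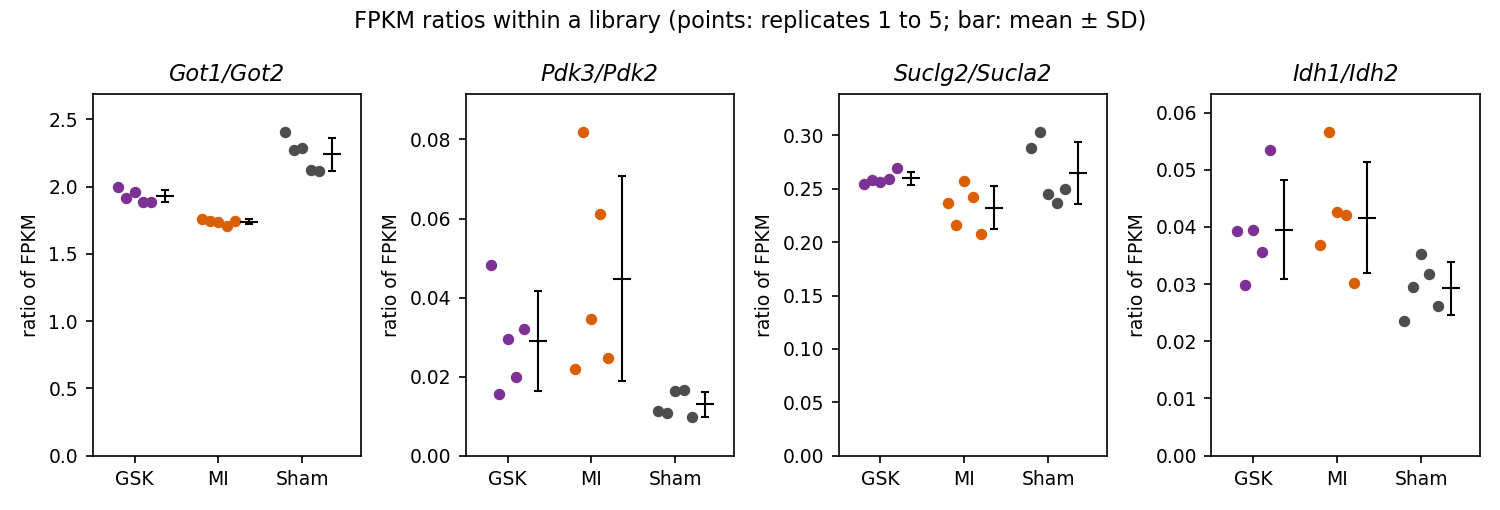
FPKM ratios within each library for 4 pairs of members, with GSK, MI and Sham from left to right, a point per replicate and the mean ± SD as a bar. For Got1/Got2 the GSK points lie from 1.89 to 1.995, the MI points from 1.71 to 1.76 and the Sham points from 2.12 to 2.40.

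Genes around the pathway were read from 3 lists. Of 18 tested genes of side reactions, MI hearts had 3 called higher and 11 called lower, where 21.9% and 21.9% of all genes were. Among the largest falls were those of Adhfe1, a hydroxyacid-oxoacid transhydrogenase, with 8.15 ± 3.15 FPKM in MI and 21.4 ± 3.58 in Sham (-1.37 ± 0.25 SE, adjusted p = 0.000606 on the log2 scale), the D-lactate dehydrogenase gene Ldhd (-1.22 ± 0.17 SE, adjusted p = 8.91e-05) and the alanine aminotransferase gene Gpt2 (-1.21 ± 0.16 SE, adjusted p = 7.31e-05). The 3 called higher were Ldha, the muscle-type lactate dehydrogenase subunit, with 314 ± 31.6 FPKM in MI and 228 ± 12.2 in Sham (0.46 ± 0.11 SE, adjusted p = 0.00424), the malic enzyme gene Me2 (0.50 ± 0.093 SE, adjusted p = 0.000651) and Pck2, mitochondrial phosphoenolpyruvate carboxykinase (0.53 ± 0.13 SE, adjusted p = 0.00365), named after their values were seen.

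Of 6 tested carriers of cycle intermediates 4 were called lower and 0 higher in MI against Sham, against 21.9% and 21.9% of all genes. At an unadjusted p under 0.05, 4 were lower and 1 higher, against 26.3% and 25.5% of all genes. Those called lower were the glutamate carrier Slc25a22 (-0.76 ± 0.16 SE, adjusted p = 0.00157), the oxoglutarate carrier Slc25a11 (-0.59 ± 0.20 SE, adjusted p = 0.0233) and the aspartate-glutamate carriers Slc25a12 (-0.57 ± 0.20 SE, adjusted p = 0.0303) and Slc25a13 (-0.46 ± 0.17 SE, adjusted p = 0.0459). The calls of Slc25a11, Slc25a12 and Slc25a13 were lost under 5, 7 and 11 of 20 alternatives, each of them among others without MI replicate 3 or Sham replicate 5, with adjusted p up to 0.115. Of 11 tested lipoylation, iron-sulfur and assembly factors 5 were called lower and 0 higher, against 21.9% and 21.9% of all genes. At an unadjusted p under 0.05, 7 were lower and 0 higher, against 26.3% and 25.5% of all genes. The called falls were led by Sdhaf4, an assembly factor of succinate dehydrogenase (-0.65 ± 0.20 SE, adjusted p = 0.0146), the iron-sulfur factor Bola3 (-0.63 ± 0.15 SE, adjusted p = 0.00404), the glutaredoxin Glrx5 (-0.44 ± 0.17 SE, adjusted p = 0.0411) and the iron-sulfur scaffold Iscu (-0.44 ± 0.10 SE, adjusted p = 0.00315). The Sdhaf4 call was lost under 1 of 20 alternatives, that without the 2 mixed Sham libraries (adjusted p = 0.0571). The Glrx5 call was lost under 12 of 20 alternatives, including those without MI replicates 2, 3 or 4 or Sham replicates 1, 2, 3, 4 or 5, with adjusted p up to 0.128. In GSK against MI limma called no gene of these lists, 0 of 35 tested, with 7 higher and 1 lower at an unadjusted p under 0.05, where 10.8% and 10.1% of all genes were. In GSK against Sham the counts were 1 higher and 3 lower among side reactions, 0 higher and 1 lower among carriers, and 0 higher and 2 lower among the factors, against 10.8% higher and 7.58% lower of all genes.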

How the data were processed

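Poly-A RNA of mouse left ventricle was sequenced in 15 libraries (1000 ng of RNA, RIN above 8, paired reads of 150 nt from a NovaSeq instrument according to the labels). The authors deposited FPKM for 54532 genes; per the submitters' processing notes the tools were HISAT2, featureCounts (Subread), R 3.5.1 and DESeq2, on build mm10, with roles, strand setting and annotation not given in the sources used here. FPKM times gene length gave whole fragments, within 0.01, for 100% of values. Their scale between libraries followed median-of-ratios size factors (r = 1.0) and not fragment totals (r = 0.61). For each gene log2(FPKM + 1) was fitted with limma 3.58.1 in R 4.3.3 (empirical Bayes with trend) over all 15 libraries, for the 12585 genes that reached 1 FPKM in 5 or more libraries. P-values were adjusted by Benjamini-Hochberg over these genes and called under 0.05. The procedure was run on simulated data with independent noise and a single spread per gene for all groups. That setting lacks the unequal spread of the real groups and genes that shift together in a library, so it does not test the calls under these. A fold change on this scale understates low genes. Ratios of members were compared by exact two-sided permutation over the 252 assignments of 5 against 5 libraries, adjusted over 10 ratios. The protocols speak of independent mice, so libraries were taken as biological replicates; the animal number 5 occurs in a mixed Sham name and in an MI name, and whether it is a single numbering is not given. No value column belonged to an unmapped sample. Intervals are 95%.

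The members, the pathway lists, the markers and the tests were chosen with earlier results of these data known. Values in every library were given for the 8 members of lowest p in MI against Sham, the 6 of lowest p in GSK against MI, the carrier, kinase and phosphatase genes and Cs, with the other members by level and call, and with the 4 largest called changes of each pathway list, except one that is not reported here. Alternatives were a pseudocount of 0.1, no filter, quantile normalization, scaling without mitochondrially encoded genes, fits of 2 groups only, library weights, voom on recovered fragments, a replicate block, and leaving out single libraries or those that stand apart.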

Additional observations from a re-analysis of the deposited data

Results flagged for a closer look

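Each of the 35 genes was checked in each of the 3 groups for a library far from the other 4, a gap to the nearest library of more than 0.71 of the range (Dixon's rule at 95%). Of 105 such checks 8 were positive, and chance gives about 1 in 20. All 8 were the highest library of their group. GSK replicate 2 accounted for 5 of them: Idh3b at 218 FPKM, Sdha at 398 FPKM, Sdhd at 404 FPKM, Pcx at 10.1 FPKM and Mpc2 at 41.3 FPKM. MI replicate 1 stood apart for Pdk4 at 282 FPKM. Sham replicate 5 stood apart for Pdpr at 25.2 FPKM and for Got2 at 188.7 FPKM. The genes of a library are not independent of each other, and no cause was tested.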

How the results depend on the processing

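Between MI and Sham hearts 26 members were called lower, 20 to 32 over all 20 alternatives (20 to 30 with single libraries left out), and 19 of the 27 called members were called in every one. The share of all genes called lower moved too. It was 21.9% as reported, 8.82% with no filter, 27.4% with library weights and 18.0% to 23.1% with single libraries left out. The count called higher, 1 of 35, was 0 without MI replicate 4 and GSK replicates 3 and 4 and 0 without the 2 mixed Sham libraries. In these settings 22.8% and 17.6% of all genes were called higher. Between GSK and MI no member was called under any alternative (lowest adjusted p 0.0664), while over all genes limma's counts were 0 to 204 higher and 0 to 188 lower with single libraries left out, 3 and 0 with a pseudocount of 0.1, and 2 and 0 by voom on recovered fragments. Between GSK and Sham 8 members were called lower, where 7.58% of all genes were. With the share of all genes in brackets, the count was 3 with no filter (1.87%) and 2 under quantile normalization (7.52%). It was 18, and 1 higher, with only the 2 groups fitted (13.5%, and 14.1% higher), and 21, and 1 higher, with library weights (16.1%, and 17.4% higher). It was 5 without MI replicate 4 and GSK replicates 3 and 4 (8.54%), 2 without the mixed Sham libraries (3.68%) and 3 without the GSK libraries named with G (4.77%). With single libraries left out it was 2 to 10 (3.27% to 8.99%). Of the 10 ratios 2 were called between MI and Sham, 0 to 4 with single libraries left out. The ratio count was 0 to 2 for GSK against MI and 0 to 4 for GSK against Sham with single libraries left out. What caused these shifts in the counts was not tested.

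Differences that were not called changed sign in 11 members for GSK against MI and in 5 for GSK against Sham. For GSK against MI, Sdhd did so under 7 of 20 alternatives (-0.15 to 0.13), Got2 under 5 (-0.11 to 0.16) and Mdh2 without GSK replicate 2 or MI replicate 2 (lowest -0.045), and Idh3b, Dlst, Suclg1, Sdhb and Pdhb were below 0 without MI replicate 2 alone (-0.033 to -0.0093). The other three were Pdk3 (0.012 with library weights, 0.012 without MI replicate 4 and GSK replicates 3 and 4), Pdk4 (-0.059 and -0.50 in the same order of settings) and Mpc1 (0.015 with library weights, -0.13 to 0.00030 with single libraries left out, above 0 without MI replicate 5). For GSK against Sham, Cs (0.050), Ogdh (0.041), Mdh1 (0.10) and Mdh2 (0.018) turned positive under quantile normalization; the fifth was Idh1 (-0.014 with library weights, -0.031 without MI replicate 4 and GSK replicates 3 and 4, -0.013 without the mixed Sham libraries, and -0.053 to 0.064 with single libraries left out, below 0 without GSK replicate 3 or Sham replicate 1).

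Correlations of deviations between libraries of the same replicate number ran from -0.41 to 0.49, with no common sign. The highest was that of GSK replicate 4 with MI replicate 4. The main fit did not treat the numbers as pairs. With the number as a block 23 members were lower in MI than in Sham and 3 lower in GSK than in Sham; over all genes the block gave 2549 higher and 2472 lower in MI against 2757 and 2758 without it, and 924 higher and 535 lower in GSK against Sham, against 1354 and 954. For ratios the block count was 0 in MI against Sham, since sign changes of 5 pairs cannot give a p under 0.0625.

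Libraries held 21.5 to 26.8 M fragments, and the share of depth in the spread was not tested; the lowest member, Pdk3, had 78 to 250 fragments.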
